A study of Mus musculus with 14 samples.

Results

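Ribosome-bound RNA of Purkinje cells was compared with RNA of the whole cerebellum in wild-type (WT) mice at postnatal day 21, to describe which gene classes the normal Purkinje cell translates above or below its surrounding tissue. The comparison rests on 7 of the 14 libraries of the series, chosen by their labels: 3 translating ribosome affinity purification (TRAP) WT libraries and 4 input WT libraries. The WT mice were littermates of Astn2 knockout (KO) mice, whose 7 libraries (4 TRAP KO and 3 input KO) appear here for side values and for the shared estimate of spread. Every mouse carried Tg(Pcp2-L10a-EGFP), a bacTRAP transgene in which the Pcp2 promoter drives ribosomal protein L10a fused to EGFP. In both WT groups replicate 1 was female and the others were male. The labels give neither the background strain nor the number of cerebella behind a library, so p-values measure the spread between these libraries. Input was a share of the homogenate supernatant left after a low-speed spin, and TRAP was the RNA that antibodies against GFP pulled from the remainder.

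Purkinje cells are the large GABAergic neurons whose axons are the output of the cerebellar cortex. They receive parallel fibres from granule cells and a climbing fibre from the inferior olive, and glutamate drives release of stored calcium through IP3 receptors in their dendrites. They are few beside the granule cells, so whole-cerebellum RNA is mostly RNA of other cells. In TRAP a transcript counts when it sits on a tagged ribosome, which biases the measurement towards RNA in translation. RNA that sticks to the beads, on untagged ribosomes or free, can be carried over.

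The Pcp2 promoter drives the transgene, so the bases just before the Pcp2 start are shown, with those of Pcp4, the Purkinje marker with the highest level per kilobase in TRAP. Both are the 250 bases before the annotated start in RefSeq (GRCm38.p6), written 5′ to 3′ on the strand of the gene, at chr8:3625548-3625797 (minus strand) for Pcp2 and chr16:96467356-96467605 (plus strand) for Pcp4. Capitals mark AGGTCA or its reverse complement TGACCT, the half-site bound by retinoid-related orphan receptors such as RORA.
Pcp2: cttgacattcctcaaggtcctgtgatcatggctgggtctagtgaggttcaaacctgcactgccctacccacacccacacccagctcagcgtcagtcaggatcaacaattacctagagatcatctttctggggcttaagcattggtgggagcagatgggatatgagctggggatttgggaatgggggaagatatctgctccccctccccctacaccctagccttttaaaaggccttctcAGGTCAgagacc
Pcp4: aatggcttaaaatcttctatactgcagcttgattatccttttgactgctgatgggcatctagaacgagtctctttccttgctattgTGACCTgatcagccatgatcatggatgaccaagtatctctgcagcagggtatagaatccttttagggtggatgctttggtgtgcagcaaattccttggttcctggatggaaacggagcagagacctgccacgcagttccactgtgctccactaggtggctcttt
The match begins 12 bases before the start of Pcp2 and 164 bases before that of Pcp4. The same window of Gng13, the other marker searched, held 0 matches, which says only that these letters are not in it. On either strand the letters AGGTCA were present in 11.3% of 15995 promoters of 12612 genes tested. They were in 14.5% of 1288 promoters of 1045 genes at least 4-fold higher in TRAP. In genes at least 4-fold lower they were in 11.5% of 1818 promoters. Genes called at least 4-fold higher made up 8.27% of all genes tested, with or without a promoter in this search. On either strand the letters TATAAA, which can overlap AGGTCA by an end base only, were in 6.97% of all these promoters. They were in 9.08% of those of the higher genes and 7.54% of those of the lower genes. The letters GGGCGG were in 54.0%, 48.1% and 44.7%, in the same order. These shares describe letters in a window and not bound sites.

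The 7 WT libraries held 18.8 to 39.1 M counts (M, 1e6). The 10 highest genes took 9.32% to 10.2% of the counts in TRAP WT and 2.64% to 3.38% in input WT. TRAP WT replicate 3 stood apart. Its log2 CPM values (counts per 1e6 counts) correlated across genes with those of replicates 1 and 2 at r = 0.943 and 0.922, against 0.984 between replicates 1 and 2 and 0.988 to 0.996 among the inputs. Several short transcripts were lower in replicate 3 and several long ones higher, and results that change when it is left out are given both ways. In bulk RNA, a difference in the number of cells of a type and a difference in RNA per cell cannot be told apart.

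A gene is called higher or lower here when its adjusted p is under 0.05 in edgeR's quasi-likelihood test of TRAP WT against input WT, fitted over 16042 genes. By this rule 5937 genes were higher in TRAP (37.0%) and 6181 were lower (38.5%). Differences are given as log2 fold changes ± SE, and levels as CPM with TMM factors, which scale each library by the bulk of its genes. The scaling mattered: with library totals alone the median over all tested genes was -0.91 on the log2 scale in place of -0.09, and 3135 genes were higher and 9801 lower. Every TRAP library lay above every input library for 34.4% of genes, and below every input library for 38.2%. With offsets for transcript length, another setting, the median over all genes with a length was 0.15. A class of genes is therefore described by its counts and its median beside these values.

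**Figure D1:**
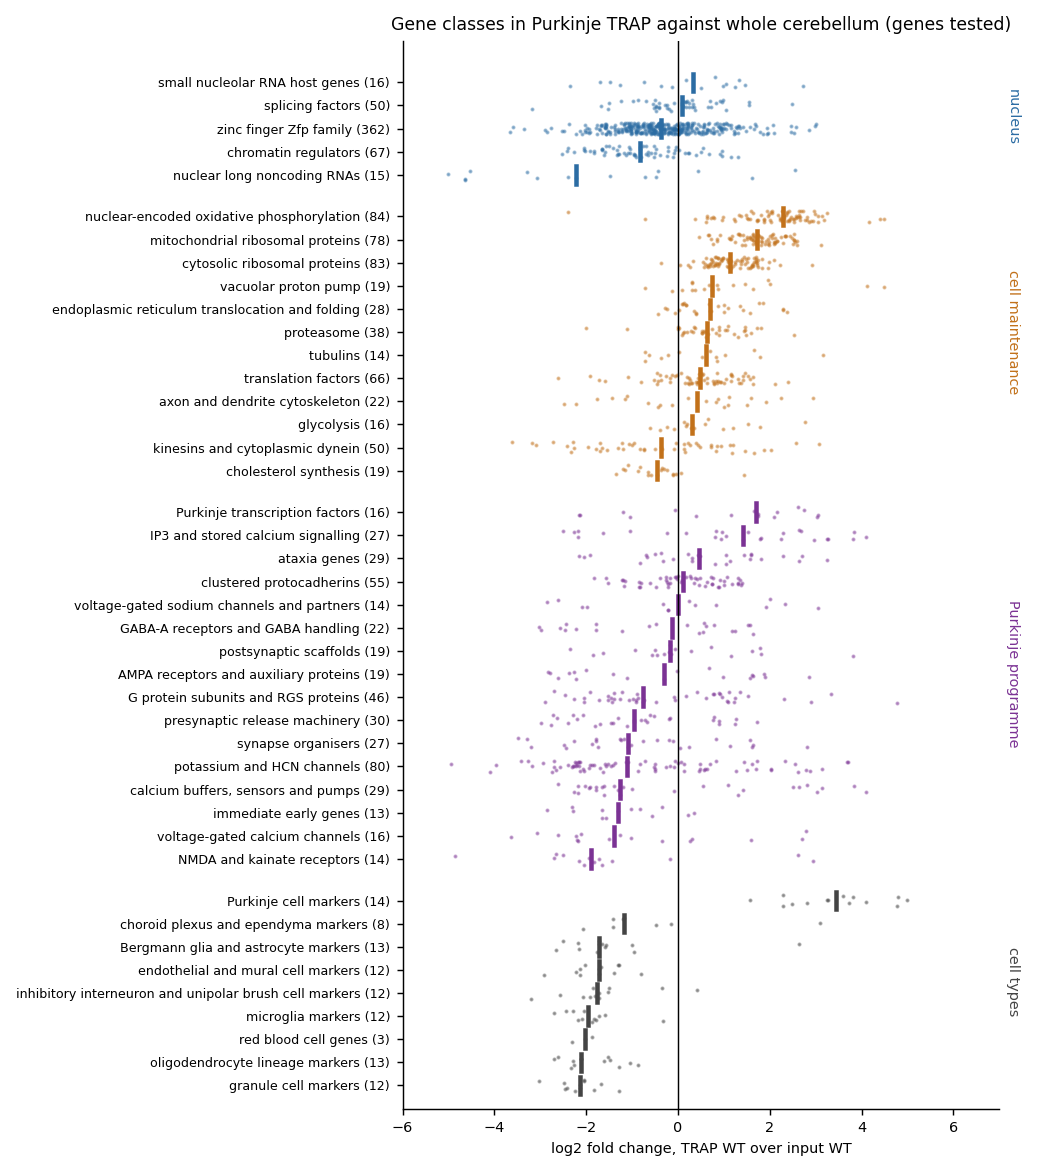
Log2 fold change of TRAP WT over input WT for each tested gene of 42 gene classes, 1 point per gene, with the class median as a bar and the number of genes in brackets. Purkinje markers (median 3.43) and oxidative phosphorylation genes (2.28) sit to the right, and markers of other cell types to the left.

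The labelled cell type was checked against its markers. Pcp2 (Entrez 18545), a regulator of G protein signalling in Purkinje cells, was measured at 11780, 10800 and 18640 CPM in TRAP WT and at 476, 444, 409 and 400 CPM in input WT. Pcp4 (Entrez 18546), which binds calmodulin, was at 21620, 27340 and 17670 CPM in TRAP and between 662 and 898 CPM in input. For both genes every TRAP library lay far above every input library. Car8 (Entrez 12319), a carbonic anhydrase-related protein that binds the IP3 receptor, was at 23250, 21060 and 24630 CPM against 1958, 1798, 1887 and 1962 CPM. Gng13 (Entrez 64337), a G protein gamma subunit, was at 4413, 5606 and 1427 CPM against 122 to 154 CPM. TRAP WT replicate 3 held the lowest Gng13 level of its group, still well clear of the inputs. The log2 fold changes were 4.99 ± 0.18 for Pcp2, 4.80 ± 0.17 for Pcp4, 3.60 ± 0.11 for Car8 and 4.77 ± 0.34 for Gng13.

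Each of the 14 Purkinje markers tested was higher in TRAP, with a median log2 fold change of 3.43, against 37.0% of all genes and a median of -0.09. Together they made up 88840 ± 6128 CPM in TRAP (SD, n = 3) and 6560 ± 369 CPM in input (SD, n = 4). Calb1, the calcium buffer calbindin, was at 6281, 6523 and 5811 CPM against 816 to 948 CPM. Ppp1r17, a phosphatase inhibitor, had a log2 fold change of 3.73 ± 0.14. Slc1a6, the glutamate transporter EAAT4 of Purkinje spines, had 2.48 ± 0.18, and Dner, a Notch ligand of their dendrites, 2.28 ± 0.16.

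**Figure D2:**
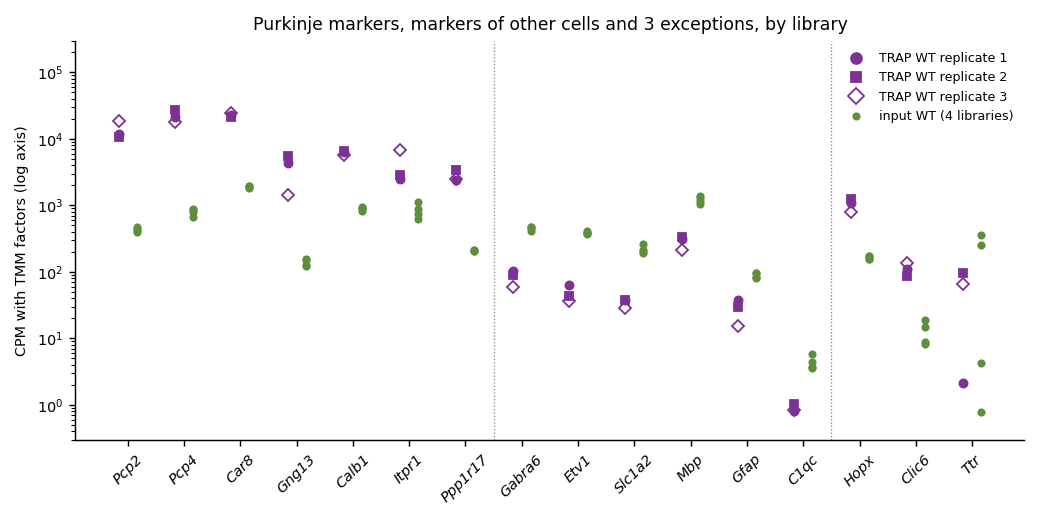
CPM on a log axis in each of the 3 TRAP WT libraries (purple, replicate 3 open) and the 4 input WT libraries (green) for Purkinje markers, markers of other cells and 3 genes that went against or varied within their marker class. For Pcp2, Pcp4, Car8 and Gng13 no TRAP library overlaps an input library, and Gabra6, Etv1, Slc1a2, Mbp, Gfap and C1qc lie lower in TRAP than in input.

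Markers of the other cells of the cerebellum were lower in TRAP but present. Of 12 granule cell markers, 12 were lower, with a median log2 fold change of -2.13, against 38.5% of all genes. Gabra6, a GABA-A subunit of granule cells, was at 102, 88.9 and 59.7 CPM against 412 to 479 CPM. Etv1, a transcription factor, had a log2 fold change of -3.03 ± 0.19. Each TRAP library fell below each input library for both genes. The summed level of the 12 granule markers was 1469 ± 322 CPM in TRAP (SD, n = 3), 23.6% of the 6237 ± 43.4 CPM in input (SD, n = 4), with 28.2%, 24.5% and 18.0% in replicates 1, 2 and 3. Of the oligodendrocyte lineage markers 13 of 13 were lower (median -2.10), and Mbp, myelin basic protein, was at 308, 334 and 212 CPM against 1038 to 1395 CPM. Microglia markers were lower in 11 of 12 cases (median -1.96). Endothelial and mural markers were lower in 12 of 12 cases (median -1.73), with Cldn5 of tight junctions at -0.80 ± 0.26. Without TRAP WT replicate 1 Cldn5 was at -0.61 (adjusted p = 0.0688, edgeR). No granule, oligodendrocyte or Bergmann glia marker was at 0 in a TRAP library, and the part of this background in the class results was not tested.

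The other marker lists each held an exception. Among 13 Bergmann glia and astrocyte markers 12 were lower (median -1.72), with the glutamate transporter Slc1a2 at -2.66 ± 0.21 and the water channel Aqp4 at -2.50 ± 0.21. Hopx, a homeodomain protein listed as a Bergmann glia marker, was instead at 1081, 1231 and 792 CPM in TRAP and at 176, 158, 175 and 156 CPM in input, a log2 fold change of 2.63 ± 0.13. Its direction was opposite to that of the other 12 genes on the list. Of 12 interneuron and unipolar brush cell markers 10 were lower (median -1.77), and Lypd6 was at -2.57 ± 0.18. Prkcd, a protein kinase C, was called higher on this list at 0.41 ± 0.17, but with replicate number as a block its log2 fold change was 0.34 (adjusted p = 0.137, edgeR), and with library totals it was -0.41. The call was also lost without 1 of 5 libraries in turn: TRAP WT replicate 1 or 2, or input WT replicate 1, 3 or 4.

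Markers of the choroid plexus varied between libraries of a group. Ttr, its most abundant transcript, was at 2.12, 97.0 and 66.2 CPM in TRAP WT and at 4.27, 359, 251 and 0.791 CPM in input WT. Replicates 2 and 3 were high and replicate 1 low in both groups, and input WT replicate 4 was lowest. Ttr gave a log2 fold change of -1.43 ± 1.89 (adjusted p = 0.503, edgeR), and with replicate number as a block the adjusted p was 0.00104. With that block 5 of the 8 choroid and ependyma markers were lower, in place of 1. Clic6, a chloride channel protein on the same list, stood at 111, 88.2 and 134 CPM in TRAP against 8.27 to 18.7 CPM in input, where no library reached the TRAP range. Hba-a2, an alpha globin of red blood cells, was at 284, 1688 and 193 CPM against 1025 to 5613 CPM, with overlap (-2.02 ± 1.01, adjusted p = 0.0829, edgeR). It was lower with the replicate block (adjusted p = 0.0047), without TRAP WT replicate 2 (adjusted p = 0.00453) and without input WT replicate 1 (adjusted p = 0.0440), all by edgeR.

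The slow calcium pathway of Purkinje dendrites was mostly higher, while further isoforms of its channels were lower. Of 27 genes of IP3 and stored calcium signalling, 18 were higher and 6 lower (median 1.41). Homer3, a postsynaptic scaffold that binds the IP3 receptor, was at 5744, 5637 and 8528 CPM in TRAP and at 467, 459, 496 and 496 CPM in input. Itpr1, the main IP3 receptor of Purkinje cells, was at 2526, 2869 and 6873 CPM against 621 to 1138 CPM. Both groups were well separated for each gene, and TRAP WT replicate 3 held the highest level. The log2 fold changes were 3.80 ± 0.15 for Homer3 and 2.28 ± 0.27 for Itpr1, the latter 1.71 without TRAP WT replicate 3. Itpka, an IP3 3-kinase, was at 4.09 ± 0.12 and Inpp5a, an inositol polyphosphate 5-phosphatase, at 3.84 ± 0.11.

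Atp2a3, a SERCA pump that refills the store, had a log2 fold change of 3.27 ± 0.26. Of the phospholipase C isoforms, Plcb3 was at 2.68 ± 0.13, whereas Plcb4 was at 209.5, 118 and 557 CPM against 160 to 182 CPM, with TRAP libraries on both sides of the inputs (0.81 ± 0.37, adjusted p = 0.0596, edgeR). The Plcb4 difference was -0.02 without TRAP WT replicate 3, and 1.15 without replicate 2 (adjusted p = 0.00131, edgeR).

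The remaining intracellular calcium release channels were lower. Itpr3 was at -2.50 ± 0.30 and Itpr2 at -1.64 ± 0.17. The ryanodine receptors Ryr2 and Ryr3 were at -2.26 ± 0.21 and -2.17 ± 0.31. Ryr1 was at 22.4, 27.5 and 25.4 CPM in TRAP against 49.6 to 55.1 CPM in input, a log2 fold change of -1.05 ± 0.13 with no overlap. With offsets for transcript length the Ryr1 difference was 0.28 (adjusted p = 0.0910, edgeR), while those of the other 4 channels stayed lower. Itpkb, the second IP3 3-kinase on the list, was at -2.19 ± 0.24.

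Of calcium buffers, sensors and pumps, 11 of 29 were higher and 17 lower (median -1.26), a share of higher genes near that of all genes (37.0%). With length offsets the class median was -0.37, with 11 higher and 15 lower. Pvalb, parvalbumin, was at 13630, 21880 and 4954 CPM in TRAP against 702 to 826 CPM in input. Hpcal1, a visinin-like calcium sensor, was at 3012, 3279 and 3362 CPM against 386 to 406 CPM. The TRAP libraries agreed closely for Hpcal1 and spread widely for Pvalb, which was lowest in replicate 3. Hpca (hippocalcin) was at 3.14 ± 0.20 and Necab2 at 3.83 ± 0.27. Among the calmodulins Calm2 was highest, at 2.63 ± 0.16. Camk2a, the alpha subunit of calcium/calmodulin-dependent kinase II, was at 2.52 ± 0.14, against -2.19 ± 0.14 for Camk4 and -1.26 ± 0.12 for its activator Camkk2. The plasma membrane pump Atp2b2 was at 1.10 ± 0.18 and its paralog Atp2b4 at -2.62 ± 0.26.

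Glutamate receptor families differed by subunit. Of 19 AMPA receptor genes and partners, 8 were higher and 9 lower (median -0.31, and 0.25 with length offsets). These shares, 42.1% and 47.4%, stand beside 37.0% and 38.5% of all genes. Gria3 was at 115, 137 and 193 CPM against 66.8 to 87.8 CPM, a log2 fold change of 0.98 ± 0.14. Gria2 was at 144, 187 and 176 CPM in TRAP and at 161 to 178 CPM in input, so that its groups overlapped (-0.01 ± 0.12, adjusted p = 0.916, edgeR, and 1.07 with length offsets, where it was called higher). Gria4 was at 55.5, 38.1 and 34.0 CPM against 243 to 276 CPM, with every TRAP library below (-2.62 ± 0.23). The auxiliary proteins that set AMPA receptor trafficking and gating lay on both sides. Cnih2 (cornichon) was at 2.86 ± 0.13, Shisa6 at 1.90 ± 0.28 and Cacng2 (stargazin) at 1.64 ± 0.28, whereas Cacng4 was at -2.83 ± 0.22 and Shisa7 at -2.78 ± 0.22. Shisa6 was 1.21 without TRAP WT replicate 3, and Cacng2 was 1.01 without replicate 2.

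Kainate and NMDA receptor genes were lower in 11 of 14 cases (median -1.89). The 2 that were higher were kainate subunits. Grik1 was at 98.2, 84.2 and 199.7 CPM against 14.97 to 19.7 CPM, and Grik4 at 55.1, 50.5 and 72.0 CPM against 8.07 to 12.1 CPM. Neither gene overlapped between groups, and their log2 fold changes were 2.95 ± 0.23 and 2.61 ± 0.16. Grik2, a kainate subunit of granule cells, was at -2.70 ± 0.20. Among NMDA subunits, Grin2a was at 0.615, 0.338 and 0.290 CPM in TRAP and 9.30 to 14.6 CPM in input, a difference of -4.87 ± 0.39. The obligatory subunit Grin1 was at 182, 197 and 228 CPM against 217 to 244 CPM, with overlap (-0.18 ± 0.11, adjusted p = 0.147, edgeR). Without TRAP WT replicate 3 Grin1 was called lower, at -0.29 (adjusted p = 0.0297, edgeR).

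**Figure D3:**
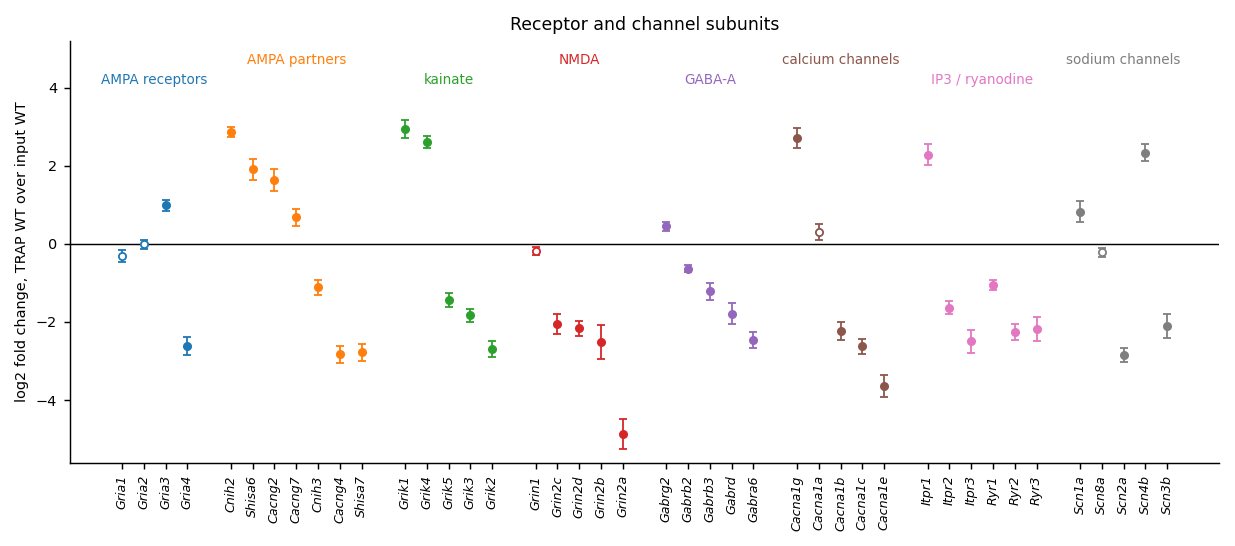
Log2 fold change of TRAP WT over input WT (points, bars ± SE) for subunits of receptor and channel families, filled where the adjusted p is under 0.05. Within each family subunits lie on both sides of 0, for example Grik1 at 2.95 and Grik2 at -2.70, or Cacna1g at 2.71 and Cacna1e at -3.64; in the NMDA family no subunit is above it.

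Inhibitory transmission was mixed, with 9 of 22 genes higher and 11 lower (median -0.14, and 0.08 with length offsets). The share higher, 40.9%, was near the 37.0% of all genes. The genes that make and load GABA were among the higher ones. Gad1, glutamate decarboxylase, was at 779.9, 990.4 and 933 CPM against 266 to 341 CPM (1.58 ± 0.13), and Slc32a1, the vesicular GABA transporter, at 209.6, 198 and 543 CPM against 88.6 to 132 CPM. Both were separated in every library, and Slc32a1 was at 1.52 ± 0.26, or 0.90 without TRAP WT replicate 3. Nlgn2, the neuroligin of inhibitory synapses, was at 1.62 ± 0.14. The extrasynaptic subunit Gabrd was at -1.79 ± 0.26. With upper-quartile scaling 5 genes of this class were higher, and with library totals 4.

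Voltage-gated calcium channel genes were mostly lower: 3 of 16 were higher and 11 lower (median -1.39). Cacna1g, a T-type channel, was at 1147, 1049 and 2844 CPM against 232 to 308 CPM. Cacna1a, the P-type channel for which Purkinje cells are the classic source, was at 328, 395 and 766 CPM in TRAP against 388 to 410.1 CPM in input. Cacna1g was separated in every library, while Cacna1a overlapped (0.30 ± 0.21, adjusted p = 0.210, edgeR). Cacna1a was -0.18 without TRAP WT replicate 3, 0.55 without replicate 1 (adjusted p = 0.0249, edgeR) -0.52 with library totals (adjusted p = 0.0353) and 1.14 with offsets for transcript length (adjusted p = 9.47e-05, edgeR). The auxiliary subunits Cacnb2 and Cacna2d2 were at 2.80 ± 0.25 and 1.58 ± 0.13. Cacna1e, the R-type channel, was at 21.9, 8.10 and 17.1 CPM against 177 to 202 CPM, a difference of -3.64 ± 0.28, and the L-type gene Cacna1c was at -2.62 ± 0.19.

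Among 14 sodium channel genes and partners 5 were higher and 4 lower (median 0.01). The share higher, 35.7%, was near the 37.0% of all genes. The beta subunit Scn4b, linked to resurgent current, was at 2.34 ± 0.20. Fgf11, a fibroblast growth factor homologous factor that binds sodium channels, was at 3.04 ± 0.12. The pore subunit Scn8a was at 146, 189 and 151 CPM against 177 to 206 CPM, with overlap (-0.22 ± 0.12, adjusted p = 0.109, edgeR), and Scn2a at -2.85 ± 0.17. With length offsets 9 genes of the class were higher. Scn8a was among them, at 0.94 (adjusted p = 3.57e-05, edgeR), whereas without TRAP WT replicate 2 it was called lower, at -0.41.

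Potassium and HCN channels were higher in 21 of 80 cases and lower in 41 (median -1.11). Among the higher genes were Kcnip1, a Kv4 interacting protein, at 3.71 ± 0.14, Kcng4, a silent Kv subunit, at 3.15 ± 0.17, and Kcnab1, a beta subunit, at 2.88 ± 0.15. The calcium-activated channel Kcnma1 was at 1.50 ± 0.19 and its beta subunit Kcnmb4 at 2.78 ± 0.17. Lower were Kcnt1, a sodium-activated channel (-2.76 ± 0.27), and Kcnj10, the glial inward rectifier (-2.40 ± 0.21).

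G protein subunits and RGS proteins, which speed GTP hydrolysis, were higher in 18 of 46 cases and lower in 21 (median -0.76). The share higher, 39.1%, was near the 37.0% of all genes. Rgs8 was at 11120, 9357 and 13310 CPM against 1448 to 1567 CPM. Rgs10 was at 104, 141 and 85.8 CPM against 10.3 to 11.6 CPM. Both were separated by a wide gap, at 2.89 ± 0.13 and 3.34 ± 0.15. Gnas, the stimulatory alpha subunit, was at 1.21 ± 0.08 and Gng12 at -2.89 ± 0.11. With library totals for scaling 8 genes of the class were higher.

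Synapse organisers were lower in 16 of 27 cases and higher in 6 (median -1.10). With length offsets 12 were lower and 7 higher (median -0.23). Cbln1, which granule cells secrete as a synapse organiser, was at 366, 322 and 279 CPM against 983 to 1246 CPM. Lrfn5, an adhesion protein, was at 73.8, 57.2 and 163 CPM against 12.6 to 16.02 CPM. The groups were separate in opposite directions, at -1.80 ± 0.19 and 2.81 ± 0.26. Lrrtm2, a neurexin ligand, was at -3.21 ± 0.23. Among 19 postsynaptic scaffolds, 7 were higher and 5 lower (median -0.19, and 0.51 with length offsets), and 8 were lower without TRAP WT replicate 3. The share of scaffolds higher, 36.8%, was near the 37.0% of all genes. Apart from Homer3, Dlgap4 was at 1.82 ± 0.09 and Shank2 at 1.80 ± 0.30, the latter 1.16 without replicate 3. Dlg4, PSD-95, was at 466, 440.2 and 384 CPM against 412 to 494 CPM, with overlap (-0.07 ± 0.10, adjusted p = 0.554, edgeR, and 0.62 with length offsets, where it was called higher), and Dlg1 was at -2.36 ± 0.24.

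The presynaptic release machinery was lower in 20 of 30 cases and higher in 7 (median -0.96). Active zone proteins were among the lowest, with Pclo (piccolo) at 21.4, 23.0 and 16.9 CPM against 147 to 175 CPM and Rims1 at 25.6, 9.01 and 26.4 CPM against 132 to 154 CPM. No TRAP library came near the inputs for these genes (-2.98 ± 0.31 and -2.77 ± 0.33). The vesicle proteins Rab3a and Vamp2 were higher, at 1.72 ± 0.15 and 1.24 ± 0.18. The complexins, which clamp and trigger fusion, went in opposite directions. Cplx1 was at 2027, 1989 and 2069 CPM against 808 to 867 CPM (1.26 ± 0.09), and Cplx2 at 257, 226 and 67.0 CPM against 1010 to 1170 CPM (-2.65 ± 0.34).

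Of 16 transcription factors known from Purkinje cells or their lineage, 10 were higher and 4 lower (median 1.70). Lhx5, a LIM homeodomain factor, was at 244, 314 and 152 CPM against 27.4 to 30.4 CPM, and Foxp4, a forkhead factor, at 817, 723 and 680 CPM against 89.2 to 94.5 CPM. The groups did not overlap, at 3.05 ± 0.19 and 3.02 ± 0.13. Skor2, a corepressor needed for Purkinje identity, was at 2.75 ± 0.23 and Ebf3 at 2.60 ± 0.17. Rora, the nuclear receptor mutated in the staggerer mouse, was at 585, 664 and 691 CPM against 269 to 304 CPM, a smaller difference of 1.16 ± 0.16 with no overlap. En2 (-2.15 ± 0.12) and Bhlhe22 (-2.14 ± 0.20) were lower, as were Foxp1 and Prdm8.

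Genes whose mutation causes ataxia in mice or people were higher in 16 of 29 cases and lower in 8 (median 0.47). With library totals the class median was -0.36, with 8 higher and 15 lower. With length offsets it was 1.14, with 21 higher and 6 lower. The higher ones included Ppp2r2b, a phosphatase subunit, at 1.58 ± 0.11. Atxn7 was at -1.93 ± 0.15. Activity-induced immediate early genes were lower in 8 of 13 cases (median -1.31), with 0 higher in edgeR, in DESeq2 and at an unadjusted p under 0.05. Egr1 was at 7.52, 12.2 and 2.57 CPM against 30.1 to 39.2 CPM, below the inputs in every TRAP library (-2.31 ± 0.45). Clustered protocadherins, the adhesion proteins that give neurons a surface code, depended on TRAP WT replicate 3: 17 of 55 were higher and 6 lower, and without that library 16 were higher and 20 lower. Pcdhac2 was at 133, 90.1 and 206 CPM against 49.5 to 64.3 CPM (1.37 ± 0.20).

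Genes of oxidative phosphorylation and of both kinds of ribosome were higher nearly throughout. Of 84 nuclear-encoded oxidative phosphorylation genes, 81 were higher (median 2.28), against 37.0% of all genes, and 0 were lower in edgeR, in DESeq2 or at an unadjusted p under 0.05. Cox6a1, a cytochrome oxidase subunit, was at 2074, 2424 and 2159 CPM against 349 to 408 CPM (2.52 ± 0.13). The top of the class was formed by subunit isoforms better known from other tissues. Cox6b2, known from testis, was at 149, 221 and 164 CPM against 6.60 to 9.97 CPM, and Cox7a1, known from heart and muscle, at 76.3, 101 and 79.5 CPM against 3.22 to 4.77 CPM. Cox4i2, known from lung, was at 28.9, 55.4 and 29.1 CPM against 1.75 to 2.76 CPM. Each of the 3 was more than an order of magnitude above input in every library, at 4.48 ± 0.18, 4.41 ± 0.15 and 4.16 ± 0.27.

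Of 78 mitochondrial ribosomal proteins, 78 were higher (median 1.73), with Mrpl53 highest at 3.12 ± 0.11. Of 83 cytosolic ribosomal proteins, 76 were higher (median 1.12), and 0 were lower in edgeR or DESeq2, with 1 at an unadjusted p under 0.05. Rps15a overlapped at 98.0, 117 and 60.3 CPM against 109 to 128 CPM (-0.36 ± 0.17, adjusted p = 0.0641, edgeR). Without TRAP WT replicate 2 Rps15a was lower, at -0.69 (adjusted p = 0.000681, edgeR), as was 1 oxidative phosphorylation gene. Rpl10a, whose protein the transgene carries, was at 235, 277 and 395 CPM against 79.5 to 90.5 CPM (1.83 ± 0.13). Whether reads of the transgene count towards Rpl10a is not given in the sources used here.

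**Figure D4:**
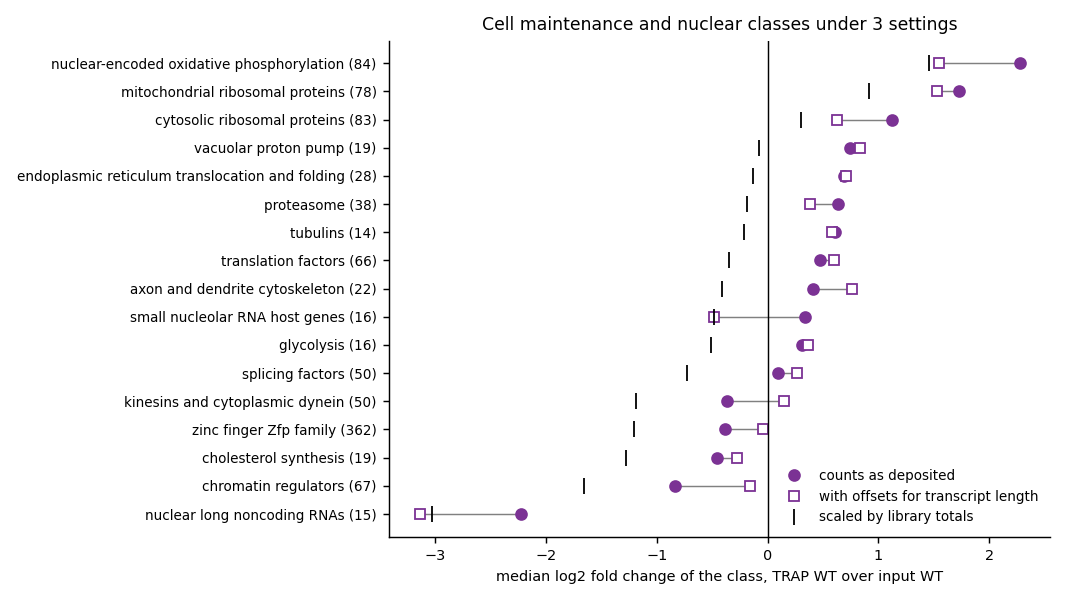
Median log2 fold change of cell maintenance and nuclear gene classes in the counts as deposited (filled circles), with offsets for transcript length (open squares) and with library totals for scaling (bars); the number of genes tested is in brackets. Oxidative phosphorylation (2.28, 1.55 with length offsets), mitochondrial ribosomal proteins (1.73, 1.53) and cytosolic ribosomal proteins (1.12, 0.63) stay above 0 under each setting.

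These are short transcripts, and length moved with the result. The median transcript of the oxidative phosphorylation class was 1003 bases and that of the cytosolic ribosomal proteins 1094 bases. With offsets for transcript length 42.5% of genes were called higher and 32.5% lower. The medians were then 1.55 for oxidative phosphorylation (79 higher, 2 lower), 1.53 for mitochondrial ribosomal proteins (77 higher) and 0.63 for cytosolic ribosomal proteins (57 higher, 3 lower). With library totals, 36 of the 83 cytosolic ribosomal proteins were higher and 7 lower.

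Other maintenance classes differed less. Of 38 proteasome genes 25 were higher and 1 lower (median 0.64, and -0.18 with library totals). Without TRAP WT replicate 2 or 3 there were 2 lower. The lower one in the full fit was Psmb8, an inducible immunoproteasome subunit, at -2.01 ± 0.49. It rests on few counts, at 0.274, 0.225 and 0.166 CPM in TRAP against 0.578 to 1.49 CPM in input. In KO Psmb8 was at -0.77 (adjusted p = 0.0998, edgeR). Psmb10, from the same particle, was at 60.0, 88.6 and 39.7 CPM against 9.71 to 12.3 CPM (2.52 ± 0.21). Vacuolar proton pump genes were higher in 13 of 19 cases (median 0.75, and -0.08 with library totals), with Atp6v1g2 at 2.01 ± 0.11. Genes of endoplasmic reticulum translocation and folding were higher in 17 of 28 cases (median 0.69, and -0.13 with library totals), with Srp9 of the signal recognition particle at 2.37 ± 0.22. Translation factors were higher in 39 of 66 cases and lower in 8 (median 0.48, and -0.35 with library totals). Eef2k, the kinase that inhibits elongation factor 2, was lower, at -1.92 ± 0.17.

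Glycolysis genes were higher in 8 of 16 cases (median 0.31, and -0.51 with library totals). Aldoc, the aldolase known as zebrin II that marks stripes of Purkinje cells, was at 9356, 10560 and 6899 CPM against 1184 to 1494 CPM, far above input in each library (2.77 ± 0.16). Cholesterol synthesis was lower in 10 of 19 cases and higher in 1 (median -0.45), or 2 without TRAP WT replicate 3. Cyp51 was at -1.36 ± 0.22, and the exception was Pmvk, phosphomevalonate kinase, at 1.44 ± 0.14. Tubulins were higher in 8 of 14 cases (median 0.61, and -0.21 with library totals), led by Tuba8 at 598, 499 and 518 CPM against 56.9 to 65.0 CPM (3.15 ± 0.12). Of the axon and dendrite cytoskeleton 11 of 22 genes were higher and 9 lower (median 0.41, and -0.41 with library totals). Stmn4, a microtubule destabiliser, was at 2.95 ± 0.12. Map2, the dendritic microtubule protein, was at 45.9, 45.4 and 46.0 CPM against 245 to 267 CPM (-2.49 ± 0.12). The dendritic motor Kif17 was at 3.08 ± 0.15. In its class of kinesins and dynein 15 of 50 were higher (30.0%) and 23 lower (46.0%), beside 37.0% and 38.5% of all genes. The class median was -0.36, and 0.15 with length offsets, where that of all genes was also 0.15.

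The list of long noncoding RNAs named here as nuclear had the lowest class median of this fit (-2.22). Where each RNA of the list resides was not tested. Malat1, a nuclear speckle RNA, was at 18.6, 29.4 and 16.6 CPM in TRAP and at 587, 553, 445 and 410 CPM in input. Meg3, an imprinted noncoding RNA, was at 69.1, 96.1 and 33.8 CPM against 1422 to 1863 CPM. For both, the TRAP libraries held a few percent of the input level. The log2 fold changes were -4.54 ± 0.25 and -4.64 ± 0.30, with Miat at -5.01 ± 0.36 and Neat1, the paraspeckle RNA, at -3.08 ± 0.20. Of the 15 genes on this list 12 were lower and 3 higher. The exceptions were Pvt1 (2.54 ± 0.11), Gas5 (1.61 ± 0.20) and Jpx. The Jpx difference of 0.44 ± 0.17 lost its call with the replicate block (adjusted p = 0.227, edgeR) or without TRAP WT replicate 1 or 2 or input WT replicate 1 or 4, and was -0.39 with library totals. Gas5, a snoRNA host transcript, was at 71.3, 124 and 82.2 CPM against 25.6 to 33.6 CPM, with no overlap. Small nucleolar RNA host genes were higher in 7 of 16 cases (43.75%) and lower in 5 (31.25%), near the 37.0% and 38.5% of all genes. With the replicate block, and without TRAP WT replicate 2, there were 4 higher. Snhg6 was at 2.72 ± 0.17 and Snhg11 at -1.70 ± 0.23.

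Chromatin regulators were lower in 46 of 67 cases and higher in 8 (median -0.83). These transcripts are long, with a median of 6487 bases, and with offsets for length 27 were lower and 16 higher (median -0.16). Kmt2a, a histone methyltransferase, was at 28.6, 28.7 and 16.7 CPM against 137 to 138 CPM, and was lower under both settings (-2.53 ± 0.22, and -1.13 with length offsets). Kmt5a was at 1.31 ± 0.11. Zinc finger genes of the Zfp family were lower in 173 of 362 cases and higher in 80 (median -0.38, and -0.04 with length offsets), with Zfp931 highest at 3.01 ± 0.23. Splicing factors were divided, with 15 of 50 higher (30.0%, against 37.0% of all genes) and 18 lower (36.0%, against 38.5%). Srrm4, the neuronal microexon factor, was lowest at -3.18 ± 0.19.

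**Figure D5:**
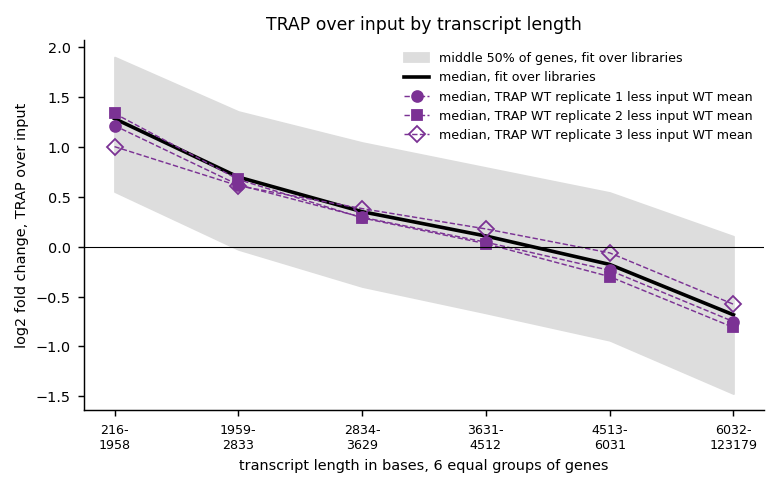
Median log2 fold change of TRAP over input in 6 equal groups of genes by transcript length in bases, for the fit over libraries (black, grey band for the middle 50% of genes) and for each TRAP WT library (purple). The median falls from 1.28 in the shortest group to -0.68 in the longest, and TRAP WT replicate 3 has the flattest line.

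Across all genes the difference followed transcript length. Of 10192 genes with a mean log2(CPM + 1) of at least 3 over the WT libraries, 47.6% were higher and 31.6% lower. Their median log2 fold change was 0.265, the value to set beside those of this paragraph. It was 1.28 in the shortest sixth (up to 1958 bases) and -0.68 in the longest (from 6032 bases). In the shortest sixth 79.3% of genes were higher, and in the longest 19.8%. Spearman's rho between length and the difference from the mean input was -0.48 in TRAP WT replicate 1, -0.49 in replicate 2 and -0.35 in replicate 3, over 10044 genes that share a library. Input WT libraries differed from their own mean in the same property, from -0.37 in replicate 3 to 0.28 in replicate 4. By length of the 3′ UTR the medians ran from 0.71 in the shortest sixth to -0.27 in the longest. Sixths by GC content spanned 0.15 to 0.39. Proteins with 4 or more predicted hydrophobic segments had a median of -0.12, against 0.34 for those with none. In the third of genes with the shortest transcripts these medians were 0.51 and 1.02, and in that with the longest -0.49 and -0.39. Noncoding genes at this level (n = 135) had a median of 0.84.

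Outside the marker lists, the 15 highest genes with a mean log2(CPM + 1) of at least 5 over the 14 libraries included Cck, the cholecystokinin precursor, at 351 ± 69.2 CPM in TRAP (SD, n = 3) and 17.2 ± 3.83 CPM in input (SD, n = 4). Smpx, a small protein known from striated muscle, was at 133 ± 18.2 CPM against 6.61 ± 0.54 CPM. Fgf7, a fibroblast growth factor, was at 245 ± 99.8 CPM against 13.6 ± 2.36 CPM. Their log2 fold changes were 4.35 ± 0.29, 4.34 ± 0.14 and 4.17 ± 0.21. Also on this list were Lhx1os, the opposite-strand RNA of Lhx1, at 4.47 ± 0.27 (the strand of the counts is not given here, so reads of the pair cannot be told apart), Mdfi, a myogenic factor inhibitor, at 4.16 ± 0.19, and Lhpp, a phosphatase, at 4.15 ± 0.13. The 15 lowest included the miR-124 host gene Mir124a-1hg at -4.64 ± 0.17, the synaptic scaffold Lin7a at -3.45 ± 0.17 and the glial receptor phosphatase Ptprz1 at -3.28 ± 0.22.

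Levels can be compared between genes per length. In counts per kilobase per 1e6 counts, the highest level in TRAP WT was that of Pcp4, at 25780 ± 5362 (SD, n = 3), followed by Snurf at 18090 ± 1381, Pvalb at 10260 ± 6274 and Pcp2 at 6362 ± 1904. Selenow, a small selenoprotein, Calm2, Car8, Gng13, Ywhah, a 14-3-3 protein, and Cox6a1 completed the 10 highest. By the range of their 3 libraries Pcp4 lay above Snurf and Snurf above Pvalb, each pair of neighbours from Pvalb to Ywhah overlapped, and Cox6a1 lay below Ywhah. Snurf shares its locus with Snrpn and its annotated transcript has 216 bases, so its value is uncertain. In input the same scale ranked Pcp4 at 4, Pcp2 at 75 and Gng13 at 135.

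The KO contrast uses other libraries than the WT contrast. Both come from the same fit over 14 libraries, with a shared spread and sex effect, so they are not independent. TRAP against input in KO gave 5817 genes higher (36.3%) and 6359 lower (39.6%). Class medians had the same sign in WT and KO in 40 of 42 classes, for example 3.43 and 3.23 for Purkinje markers and 2.28 and 2.18 for oxidative phosphorylation. They differed most, by 1.80, for choroid plexus and ependyma markers, at -1.19 in WT and -2.99 in KO. In edgeR's test of the difference between genotypes 0 of the 16042 genes passed an adjusted p of 0.05, and 430 had an unadjusted p under 0.05. Astn2, the gene deleted in KO, was at 0.729 to 2.11 CPM in the KO libraries and at 88.8 to 146 CPM in the WT libraries. It was higher in WT TRAP, at 0.47 ± 0.14 (adjusted p = 0.00637, edgeR), but lower with library totals, at -0.35 (adjusted p = 0.0392, edgeR). The call was lost with upper-quartile scaling (0.16, adjusted p = 0.287) and with a filter at a mean of 50 counts (0.26, adjusted p = 0.0946).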

How the data were processed

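RNA-seq libraries of TRAP and input RNA from 14 samples were available as whole-number counts per gene, deposited by the authors in 1 table with genes named by Entrez number and libraries not pooled. The submitters' processing notes list Salmon 0.8.2 and build mm10 without their roles, and the counting tool, annotation and strand setting are not given in the sources used here. Of 24100 genes, 24045 matched a symbol in RefSeq (GRCm38.p6) and 21167 a transcript length in GENCODE.

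Here, edgeR 4.0.16 in R 4.3.3 (filterByExpr, TMM, quasi-likelihood test, two-sided, Benjamini-Hochberg over 16042 genes) was fitted to all 14 libraries with group and sex, so that the groups share 1 estimate of the spread, and TRAP WT was contrasted with input WT. The main fit was run on simulated counts in which few genes changed, as many up as down. That run could not test the choice of scaling, and the alternative settings were not simulated. Totals were 18.8 to 39.1 M counts in the WT libraries, where 3 counts, the lowest level told from 0, equal 0.0768 to 0.16 CPM before TMM scaling. Libraries of a group differed by more than sampling noise (chi-square per degree of freedom 10.1 to 267 between pairs). Alternatives were other scalings, filters, DESeq2 1.42.0, fits without sex or of WT alone, a replicate block over 6 libraries, a 2-fold minimum, each WT library left out, and offsets for transcript length (loess, span 0.3, chosen after seeing the data).

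Same-numbered TRAP and input libraries deviated together from their group means (r = 0.324, 0.274 and 0.101 across 10161 genes), so the numbers were taken to pair the samples, though the labels do not say what a number marks. TRAP WT replicate 3 correlated more with input WT replicate 4 (r = 0.217) than with input WT replicate 3 (0.101). Its pairing is therefore uncertain, and the results with the replicate block rest on it. Predicted hydrophobic segments are windows of 19 residues with a mean Kyte-Doolittle hydropathy of at least 1.6.

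The comparison, gene lists and tests were chosen with earlier results of these data known. The rule for named genes took the 4 markers, the 15 highest and 15 lowest differences with a mean log2(CPM + 1) of at least 5, up to 3 highest and 3 lowest in each class with a mean of at least 3 and all members of classes of up to 15, the 10 highest levels per kilobase, and Astn2. The rule also admitted each member called against the majority of its class. Cacna1a, Cacng4, Camkk2, Cbln1, Cplx2, Dlg4, Ebf3, Gria2, Lhx1, Plcb3, Plcb4, Ppp2r2b, Rora, Rpl10a, Shisa7 and Snrpn were chosen outside it, after their values were seen. Class counts and medians cover all members tested, some of which are not reported by name here.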

Additional observations from a re-analysis of the deposited data

Results flagged for a closer look

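Among 156 named genes, Camkk2, a kinase that activates calcium/calmodulin-dependent kinases, had 1 of its 4 input WT libraries far from the other 3, by Dixon's criterion on log2(CPM + 1). It was at 9.159 in input WT replicate 1 and at 8.936 to 8.972 in the other inputs. Chance alone flags about 1 in 20 such groups. The groups of 3 TRAP WT libraries were too small for this criterion.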

How the results depend on the processing

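The choice of scaling moved the counts most. Higher and lower genes numbered 3135 and 9801 with library totals, and 4829 and 7530 with upper-quartile scaling, against 5937 and 6181. With a minimum of 2-fold 3764 genes were higher. Leaving out each WT library in turn gave 5684 to 5849 higher and 5836 to 6501 lower genes. The replicate block gave 4901 and 5271, within 1.5 times the counts without it. Beside Ttr, Hba-a2, Jpx and Prkcd, it changed no other call of a named gene. Of 42 classes, 18 had a median above 0, against 6 with library totals, 14 with upper-quartile scaling and 15 to 18 with a WT library left out.

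Library totals shifted the log2 fold changes of all tested genes by a median of -0.82, which put their median at -0.91. Class medians above that value stayed above the bulk of genes, whatever their sign. With library totals, class medians turned to -0.358 for ataxia genes, -0.184 for the proteasome, -0.512 for glycolysis, -0.35 for translation factors, -0.13 for the endoplasmic reticulum, -0.075 for the proton pump and -0.211 for tubulins. They also turned for the axon and dendrite cytoskeleton (-0.411), small nucleolar RNA host genes (-0.485), protocadherins (-0.717), splicing factors (-0.729) and sodium channels (-0.811), whose medians were at most 0.411 above 0. Astn2 turned to -0.348, Jpx to -0.386, Prkcd to -0.408 and Cacna1a to -0.524. With upper-quartile scaling glycolysis was at -0.002. With length offsets the median of all genes with a length was 0.153. Kinesins and dynein were then at 0.149, Ryr1 at 0.282, Dlg4 at 0.616, Scn8a at 0.943 and Gria2 at 1.068. The cause of the turns with upper-quartile scaling or length offsets was not tested. Library totals also ended the calls of Atp2b2, Gria3 and Rora, and length offsets that of Foxp1. Dlg4, Grin1, Rps15a and Scn8a, not past the threshold in the report, were called lower with library totals, upper-quartile scaling or a mean count of at least 50. Gria2 was so with the first pair of these settings. DESeq2 called Plcb4 higher (adjusted p = 0.0407), as did edgeR with no filter on low counts. Over all named genes and settings, those listed here included, 2737 values kept their call, 30 lost and 29 gained 1, and 8 turned. Genes of low level in TRAP, such as Grin2a at 0.290 to 0.615 CPM, rest on few counts.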
